A study of Mus musculus with 8 samples.

Results

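The metabotropic glutamate receptor (mGluR) genes Grm2, Grm3, Grm4, Grm5, Grm7 and Grm8 were read by gene name from the deposited count table, which held all 6 among its 54532 genes. Bulk RNA-sequencing (RNA-seq) had been run on the cortex of 8-mo-old C57BL/6 mice, 4 of genotype PS19 and 4 of genotype Adrb1+/m;PS19, with 1 library per mouse. All 8 mice carried the PS19 transgene, which expresses a mutant human tau from the mouse prion protein promoter. The Adrb1+/m;PS19 mice also carried 1 copy of the familial short-sleep allele of Adrb1, the β1-adrenergic receptor gene, made by CRISPR/Cas9 knock-in. The comparison therefore asked what this allele changes in a tauopathy cortex, and mice without the tau transgene were not part of it. The paper states that littermates served as controls, but the labels name no litter.

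mGluRs are G protein-coupled receptors that bind synaptic glutamate in a large extracellular domain and adjust transmission more slowly than the glutamate-gated ion channels. Group I receptors, here Grm5, couple through Gq to phospholipase C and calcium release and sit mainly at the edge of postsynaptic densities. Group II (Grm2, Grm3) and group III (Grm4, Grm7, Grm8) couple through Gi/o, lower cAMP and mostly restrain transmitter release, and Grm3 is also made by astrocytes.

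The libraries held between 14653222 and 21223754 counts, and normalization factors from edgeR's TMM method lay between 0.990 and 1.01. Levels below are these counts scaled to the normalized library size and given as CPM. Each of the 6 genes passed edgeR's filter on low counts, and the fewest counts in any mouse were 275, for Grm8. The markers of cortical excitatory neurons were present in every mouse, with Slc17a7, the cortical vesicular glutamate transporter, between 909.3 and 1259 CPM. Adrb1 itself was at 36.8 ± 4.19 CPM in PS19 and 35.0 ± 3.71 CPM in Adrb1+/m;PS19 mice (SD, n = 4 each), and a knock-in of a point mutation cannot be checked from gene counts.

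Grm3 and Grm5 were the most abundant of the 6 transcripts once gene length was taken into account. On this scale, CPM per kilobase of the gene length in the table, Grm3 had 25.4 ± 2.77 and Grm5 24.4 ± 2.19 (SD, n = 8 mice). Their order was not settled, since Grm3 was above Grm5 in 5 of the 8 mice. Grm7 followed with 10.5 ± 0.663 and Grm2 with 9.27 ± 1.68 CPM per kilobase, and Grm7 was the higher of that pair in 6 of 8 mice. Grm4 had 6.18 ± 0.522 and Grm8 1.79 ± 0.163 CPM per kilobase. Grm5 was above Grm7, Grm2 above Grm4 and Grm4 above Grm8 in every mouse. Grm3 and Grm5 together made up 60.7% to 67.0% of the length-scaled sum of the 6 genes. That sum was 76.7 ± 6.73 CPM per kilobase in PS19 mice and 78.5 ± 2.45 in Adrb1+/m;PS19 mice (SD, n = 4 each), and the ranges overlapped.

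**Figure D1:**
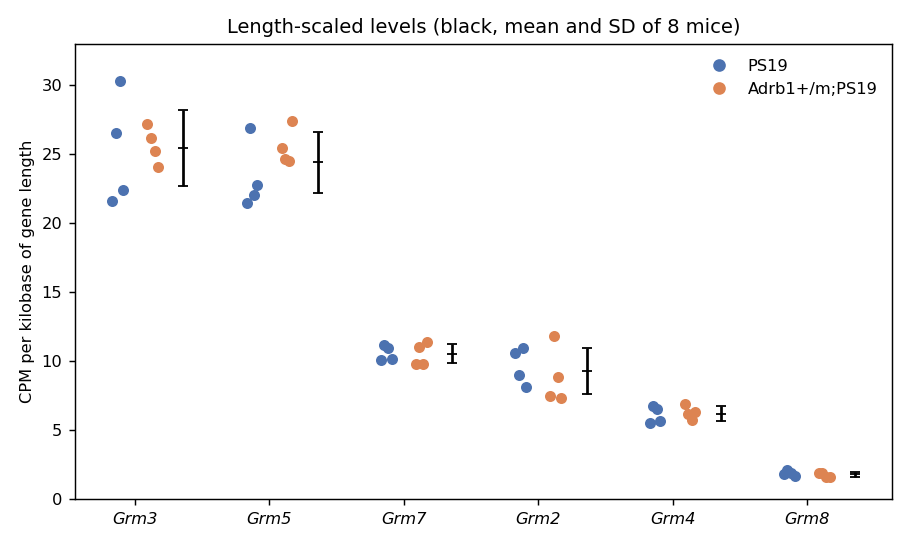
Length-scaled level of each mGluR gene (y axis, CPM per kilobase; x axis, genes in order of their mean), with 1 point per mouse colored by genotype and the mean ± SD of the 8 mice in black. Grm3 and Grm5 lie between 21.5 and 30.3, all above the other 4 genes, and Grm8 lies at 1.59 to 2.09.

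None of the 6 genes had an unadjusted p-value under 0.05 in Adrb1+/m;PS19 vs. PS19 mice by edgeR's quasi-likelihood test, and none passed after Benjamini-Hochberg adjustment over the 17195 genes tested (adjusted p = 0.9996 for each). DESeq2's Wald test and limma-voom also gave 0 of 6 with an unadjusted p-value under 0.05. Over all genes tested, 481 or 2.80% had an unadjusted p-value under 0.05 in either direction, so 0 of 6 is near the background. By direction, 1.42% of all genes were past that threshold and higher in Adrb1+/m;PS19 mice and 1.37% were lower, and DESeq2, which tested more genes, had 1.65% past it. Of the 6 genes 3 had a positive and 3 a negative log2 fold change, with a median of 0.0062 against 0.0005 over all genes tested. The values of the genotypes overlapped for every one of the 6 genes, where 2.02% of all genes tested did not overlap. The log2 fold changes below are those of edgeR's fit, each with its standard error (SE) and 95% interval. Bulk counts cannot tell fewer cells of a type from less RNA per cell.

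**Figure D2:**
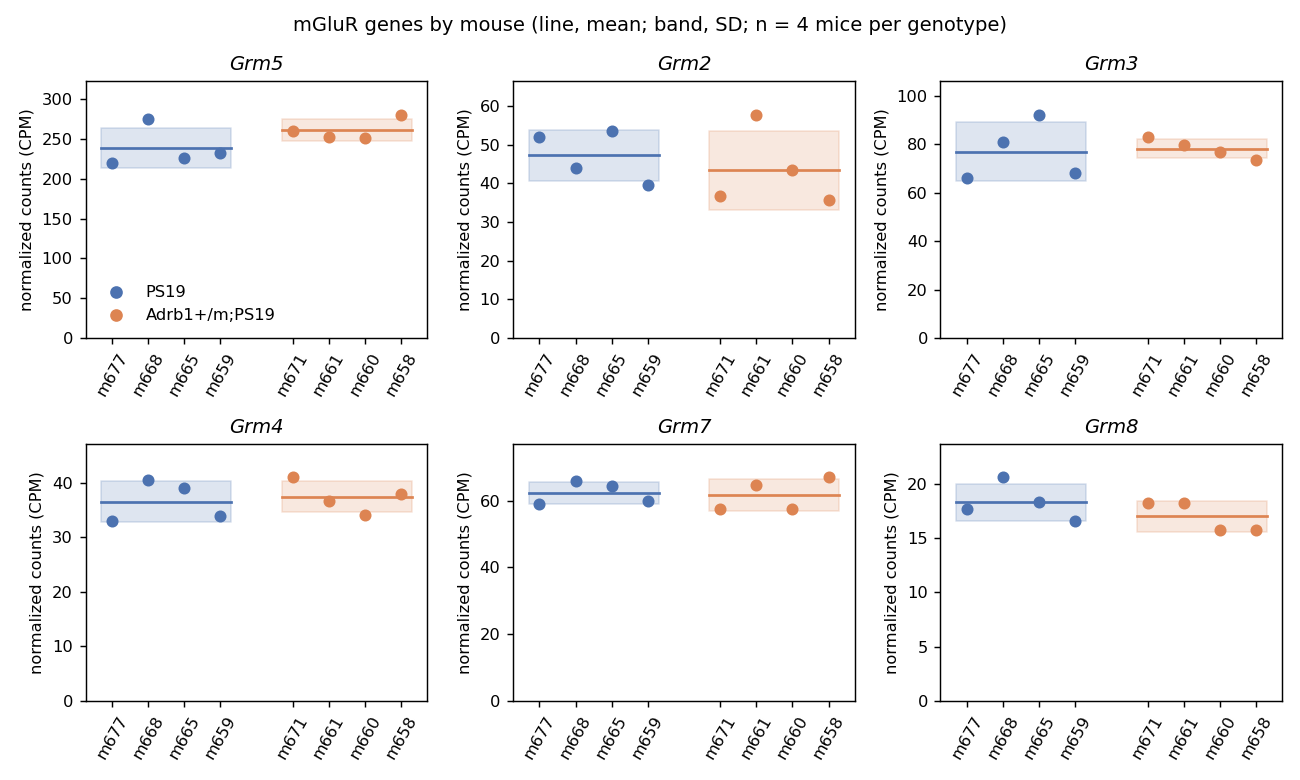
Normalized counts of each mGluR gene (y axis, CPM, from 0) in each mouse (x axis), with the genotype mean as a line and the SD as a band (n = 4 mice per genotype). The genotypes overlap in every panel, PS19 mouse m668 is high for Grm5 (276.0 CPM), and Adrb1+/m;PS19 mouse m661 is high for Grm2 (57.8 CPM).

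Grm5, the group I receptor that signals through Gq and is tied to the postsynaptic density by Homer proteins, lies on chromosome 7 of GRCm38 (87584168 to 88134907, plus strand). It had 219.9, 276.0, 225.9 and 233.1 CPM in PS19 mice m677, m668, m665 and m659, and 260.7, 252.7, 251.4 and 281.1 CPM in Adrb1+/m;PS19 mice m671, m661, m660 and m658. All 4 Adrb1+/m;PS19 mice were thus above 3 of the PS19 mice, and m668 was above all but m658. The log2 fold change was 0.13 (SE 0.07, 95% interval -0.02 to 0.28), a fold of 1.10 with an interval of 0.988 to 1.22. The exact permutation test of the mean CPM gave p = 0.143 (2-sided), where 4 against 4 mice allow no p below 0.0286. Without PS19 mouse m668 the log2 fold change was 0.21 and the unadjusted p was under 0.05 (edgeR, adjusted p = 1). Leaving out any single mouse gave log2 fold changes from 0.09 to 0.21. With no filter on low counts beyond 1 count the log2 fold change was again 0.13 and the unadjusted p was under 0.05 (edgeR, adjusted p = 0.897). The Grm5 interval lay nearest to excluding 0 among the 6 genes.

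Grm2 and Grm3 encode the group II receptors, Grm2 mainly a presynaptic autoreceptor of glutamatergic axons and Grm3 a receptor of neurons and astrocytes. Their upstream regions are shown as a description, and no link between sequence and level or spread was tested. RefSeq promoter windows (GRCm38.p6) were found for 4 of the 6 genes, Grm2, Grm3, Grm7 and Grm8, and not for Grm4 and Grm5. The 250 bases before the start site are given 5′ to 3′, with capitals marking the GC box GGGCGG, a binding motif of Sp-family factors, on either strand (its reverse complement is CCGCCC).
Grm2, chr9:106656110-106656359, minus strand: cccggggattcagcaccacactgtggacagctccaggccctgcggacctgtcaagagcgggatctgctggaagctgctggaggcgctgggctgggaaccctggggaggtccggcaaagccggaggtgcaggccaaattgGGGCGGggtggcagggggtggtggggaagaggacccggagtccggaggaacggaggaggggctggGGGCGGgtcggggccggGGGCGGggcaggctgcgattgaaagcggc
Grm3, chr5:9725353-9725602, minus strand: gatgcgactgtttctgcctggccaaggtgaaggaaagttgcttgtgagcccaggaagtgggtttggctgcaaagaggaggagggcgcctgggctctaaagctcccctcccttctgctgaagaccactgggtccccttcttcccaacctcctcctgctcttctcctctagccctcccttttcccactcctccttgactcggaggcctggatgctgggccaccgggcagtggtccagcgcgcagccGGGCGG
The Grm2 window held 3 GC boxes and the Grm3 window 1. Of 32851 such windows in the table, 32.7% held at least 1 GC box and 8.47% held 3 or more. The cAMP response element TGACGTCA, which reads the same on both strands, was in neither window and in 1.55% of all windows.

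Grm2 (chromosome 9, 106643095 to 106656082, minus strand) had the widest range of the 6 genes over the 8 mice. It had 51.9, 44.1, 53.6 and 39.6 CPM in PS19 mice m677, m668, m665 and m659, and 36.7, 57.8, 43.4 and 35.7 CPM in Adrb1+/m;PS19 mice m671, m661, m660 and m658. The Adrb1+/m;PS19 group therefore held both the highest mouse, m661, and the lowest ones, m658 and m671. The highest mouse was 1.62 times the lowest. Its coefficient of variation was 23.5% in Adrb1+/m;PS19 mice, above the other 5 genes, and 13.9% in PS19 mice, where Grm3 was higher with 15.9%. The log2 fold change was -0.12 (SE 0.14, 95% interval -0.42 to 0.18), and the exact permutation test of the mean CPM gave p = 0.571 (2-sided). Without mouse m661 it was -0.30 with an unadjusted p under 0.05 (edgeR, adjusted p = 0.9999), and without m659 it was -0.20. It was nearer to 0 without m677 (-0.08), m665 (-0.06), m671 (-0.05) or m658 (-0.04). The antisense gene Gm28111 shares 470 exonic bases with Grm2 and had at most 4 counts in any mouse.

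Grm3 (chromosome 5, 9485541 to 9725170, minus strand) did not follow Grm2. It had 66.0, 80.8, 92.3 and 68.4 CPM in PS19 mice m677, m668, m665 and m659, and 83.0, 79.8, 76.9 and 73.5 CPM in Adrb1+/m;PS19 mice m671, m661, m660 and m658. The PS19 mice spanned a wider range, and all 4 Adrb1+/m;PS19 values fell inside it. The log2 fold change was 0.02 (SE 0.09, 95% interval -0.17 to 0.22), and its sign turned without m677, m659 or m671. The ratio of Grm3 to Grm2 on the length-scaled level ran from 2.04 in PS19 mouse m677 to 3.63 in Adrb1+/m;PS19 mouse m671.

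The group III receptors, presynaptic receptors that restrain release at glutamatergic and GABAergic terminals, overlapped between the genotypes throughout. Grm7 (chromosome 6, 110645581 to 111567230, plus strand), a receptor of the presynaptic active zone with low affinity for glutamate, had 59.1, 65.8, 64.5 and 59.9 CPM in PS19 mice m677, m668, m665 and m659. It had 57.6, 64.8, 57.6 and 67.1 CPM in Adrb1+/m;PS19 mice m671, m661, m660 and m658. In both genotypes 2 mice lay above 64 CPM and 2 below 60, and the highest of the 8 was 1.16 times the lowest. The log2 fold change was -0.01 (SE 0.07, 95% interval -0.16 to 0.13), and its sign turned without m668, m665, m671 or m660. An antisense gene, Gm20387, shares 130 exonic bases with Grm7 and had 30 to 74 counts against at least 954 for Grm7, and the strand setting of the counting is not stated.

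Grm4 (chromosome 17, 27422387 to 27521403, minus strand), which in forebrain is found on corticostriatal and striatal terminals, had 32.9, 40.4, 39.0 and 33.8 CPM in PS19 mice m677, m668, m665 and m659. It had 41.0, 36.7, 34.0 and 37.9 CPM in Adrb1+/m;PS19 mice m671, m661, m660 and m658. The 2 genotypes covered almost the same range. The log2 fold change was 0.03 (SE 0.08, 95% interval -0.15 to 0.21), and its sign turned without m677, m659 or m671.

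Grm8 (chromosome 6, 27275119 to 28135178, minus strand) was the least abundant member, with 17.7, 20.6, 18.4 and 16.6 CPM in PS19 mice m677, m668, m665 and m659. It had 18.3, 18.2, 15.8 and 15.8 CPM in Adrb1+/m;PS19 mice m671, m661, m660 and m658. Mice m660 and m658 were below every PS19 mouse, while m671 and m661 lay among them. The log2 fold change was -0.10 (SE 0.10, 95% interval -0.31 to 0.10). Without single mice it ran from -0.15 (without m659) to -0.04 (without m668), and it was -0.07 without m660 or m658. The miRNA gene Mir592 lies within a Grm8 exon and had 0 counts in every mouse. Over Grm2, Grm3, Grm4, Grm7 and Grm8 the exact permutation p of the mean CPM ran from 0.229 for Grm8 to 0.857 for Grm3 (2-sided).

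Around the receptors, 61 genes of their signaling were listed, and 2 of them had an unadjusted p-value under 0.05 by edgeR, both lower in Adrb1+/m;PS19 mice. That is 3.28% of the list beside 2.80% of all genes tested in either direction and 1.37% in the lower direction. After adjustment none was left (edgeR), and DESeq2 and limma-voom each gave 3 of 61 with an unadjusted p-value under 0.05. Over all genes tested that was 555 of 33611 with DESeq2 and 492 of 17195 with limma-voom. The list had 23 genes with a positive and 38 with a negative log2 fold change and a median of -0.02, where 49.8% of all genes tested had a negative one.

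Both were Shank genes, whose proteins bind Homer and so link Grm5 to the postsynaptic scaffold. Shank3, also listed, had a log2 fold change of 0.0078 (SE 0.07), with means of 339.6 CPM in PS19 and 341.4 CPM in Adrb1+/m;PS19 mice. Shank2 had 225.4, 231.6, 209.9 and 247.9 CPM in PS19 mice m677, m668, m665 and m659, and 186.9, 209.1, 210.4 and 216.3 CPM in the 4 Adrb1+/m;PS19 mice, and its log2 fold change was -0.15 (SE 0.06, edgeR adjusted p = 0.9996). Shank1 had means of 635.2 ± 23.9 CPM in PS19 and 580.6 ± 48.6 CPM in Adrb1+/m;PS19 mice (SD, n = 4 each), with a log2 fold change of -0.13 (SE 0.06, edgeR adjusted p = 0.9996). The genotypes overlapped for both genes. The unadjusted Shank2 p was no longer under 0.05 without m668, m659 or m671, and the Shank1 p without m668, m665, m659, m671, m660 or m658. Shank2 had a log2 fold change of -0.11 without m671 and -0.19 without m665, and Shank1 one of -0.09 without m671 and -0.19 without m661.

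The Homer scaffolds, which bind the Grm5 tail directly, had negative log2 fold changes that did not pass. Homer1, whose short form uncouples the receptor, had 317.8 ± 54.5 CPM in PS19 and 280.4 ± 31.3 in Adrb1+/m;PS19 mice (SD, n = 4 each). Its log2 fold change was -0.18 (95% interval -0.40 to 0.04). It was -0.25 without PS19 mouse m677 and -0.26 without Adrb1+/m;PS19 mouse m658, both past the unadjusted threshold (edgeR, adjusted p = 0.9998 and 0.9997), and -0.06 without PS19 mouse m659. Homer2 had a log2 fold change of -0.13 (95% interval -0.28 to 0.03) and Homer3 one of -0.06 (95% interval -0.38 to 0.25).

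The 13 listed G proteins and effectors of group I held none with an unadjusted p-value under 0.05 (edgeR), with 10 negative log2 fold changes. Gnaq, the Gq alpha subunit, had a log2 fold change of -0.05 (SE 0.05), and Plcb1, the phospholipase C it activates, one of 0.05 (SE 0.05), which was 0.0093 without m677. Without m659 the Gnaq value was -0.02, and without m671 it was -0.03. Mgll, which breaks down the endocannabinoid that group I receptors mobilize, was the 1 of 61 listed partners whose genotypes did not overlap and is named for that after its values were seen, a count near the background of 2.02% of all genes tested. Its level ran from 219.4 to 235.9 CPM in PS19 mice and from 203.6 to 219.0 in the others, a log2 fold change of -0.10 (SE 0.05, 95% interval -0.20 to 0.0043).

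The 15 listed G proteins and effectors of groups II and III also held none, with 10 negative log2 fold changes and Gnao1, the main Go subunit of brain, at 0.04 (SE 0.04). The 16 listed scaffolds and binding partners held only the 2 Shank genes, the 10 desensitization genes none and the 7 genes of downstream translation and plasticity none (edgeR, unadjusted). Elfn1 and Elfn2, postsynaptic proteins that bind group III receptors across the synapse, had log2 fold changes of 0.04 (SE 0.09) and -0.01 (SE 0.08). Pick1, which binds the Grm7 tail, had one of 0.02 (SE 0.11), and Ncdn, which promotes surface Grm5, one of -0.0017 (SE 0.07). Prnp, whose product binds Grm5 and whose promoter drives the tau transgene, had one of -0.06 (SE 0.05).

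**Figure D3:**
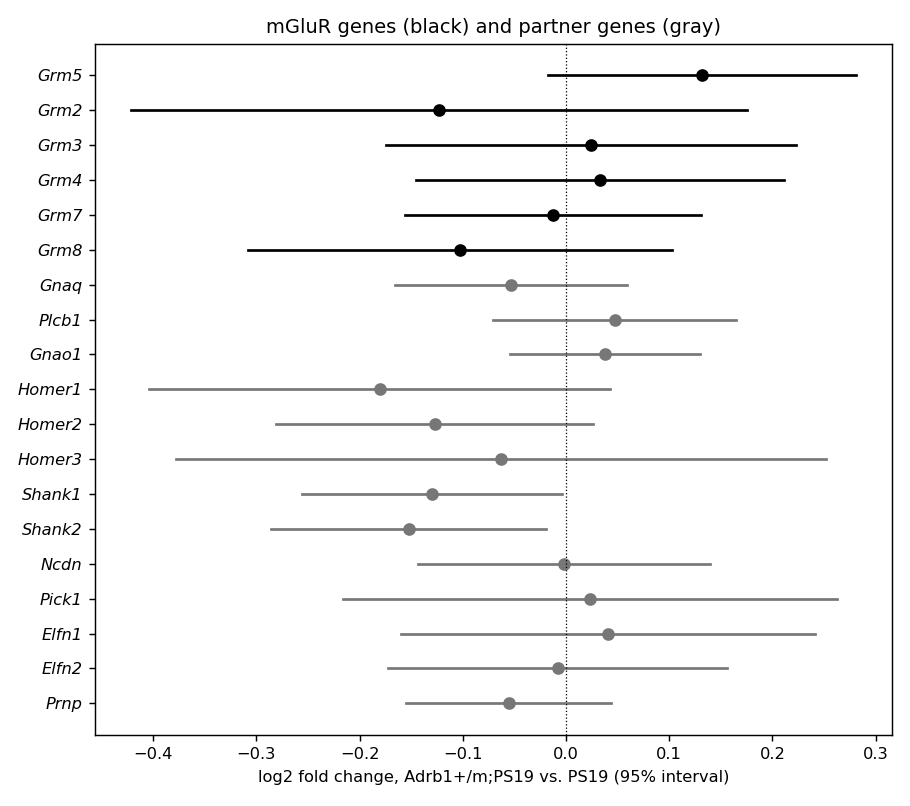
log2 fold change in Adrb1+/m;PS19 vs. PS19 mice (x axis, point) with its 95% interval (line) from edgeR for the 6 mGluR genes in black and 13 partner genes in gray. The intervals of the 6 receptors include 0, that of Grm5 runs from -0.02 to 0.28, and those of Shank1 and Shank2 lie below 0.

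Marker genes of other cell types and neighboring regions were set beside the receptors, and none of the relations computed passed adjustment. The score of a marker list in a mouse is the mean of its genes' log2 CPM, each centered on its mean over the 8 mice. All 7 basal forebrain cholinergic markers had positive log2 fold changes (median 0.65), 6 with an unadjusted edgeR p-value under 0.05, and none was at 0 in all mice. Their summed level was 32.9 to 54.5 CPM in PS19 and 50.5 to 80.2 in Adrb1+/m;PS19 mice. The 9 striatal projection neuron markers also all had positive log2 fold changes (median 0.34), and 1 passed the same threshold. These counts stand beside 1.42% of all genes tested that were past the threshold and higher, 1.37% that were lower, and 2.80% in either direction. Their summed level was 977.2 to 1950 CPM in PS19 and 1021 to 2186 in Adrb1+/m;PS19 mice, and the defining dopamine receptor genes Drd1 and Drd2 were between 20.5 and 71.0 CPM in every mouse. Of the 10 cortical excitatory markers 7 had negative log2 fold changes (median -0.13), with 4 past the unadjusted threshold, 3 lower and 1 higher. Of the 8 interneuron markers 3 passed it, 2 higher and 1 lower. None of the 10 astrocyte, 8 microglial, 6 oligodendrocyte, 5 dentate, 6 thalamic, 4 tested cerebellar and 5 tested olfactory bulb markers did (edgeR).

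Of the receptors, Grm5 had the highest r with the cholinergic score and Grm2 the lowest, a negative one. That score did not overlap between the genotypes, at -0.72 to 0.03 in PS19 and 0.12 to 0.635 in Adrb1+/m;PS19 mice. The pooled values for it below therefore mix in the genotype difference. Within a genotype, the r of Grm5 with it was 0.841 in PS19 and 0.907 in Adrb1+/m;PS19 mice (n = 4 each, not tested). That of Grm2 was -0.862 in PS19 and -0.860 in Adrb1+/m;PS19 mice (n = 4 each, not tested). Over the 8 mice Grm2 had an r of -0.698 with the cholinergic score (exact permutation p = 0.0575, adjusted p = 0.323). With the striatal score its r was -0.63 (exact permutation p = 0.1, adjusted p = 0.48). The 3 mice with the highest Grm5, m658, m668 and m671, were also the 3 highest in the striatal score (0.42, 0.48 and 0.64). Grm5 and the cholinergic score had a Pearson's r of 0.873 over the 8 mice (exact permutation p = 0.0062, adjusted p = 0.251) and a Spearman's rho of 0.833 (exact permutation p = 0.0154, adjusted p = 0.231), and r was 0.65 without m677 and m665. Grm5 and the striatal score had an r of 0.766 (exact permutation p = 0.0335, adjusted p = 0.251) and a rho of 0.786 (exact permutation p = 0.0279, adjusted p = 0.251), with r = 0.781 without the same 2 mice. Grm4 and the striatal score had an r of 0.788 (exact permutation p = 0.0312, adjusted p = 0.251) and a rho of 0.881 (exact permutation p = 0.0072, adjusted p = 0.231), with r = 0.573 without m677 and m659. The striatal score had gaps between mice. It lay at -0.58 to -0.47 in m677, m659 and m661 and at -0.05 and 0.07 in m665 and m660. In m658, m668 and m671 it lay at 0.42 to 0.64. The pooled values with this score carry that limit. In all 45 relations were computed, 15 between receptors and 30 with 5 marker lists, and none passed Benjamini-Hochberg adjustment. With the striatal score as a covariate, a fit chosen after seeing the data, the log2 fold change of Grm5 was 0.08 (edgeR, adjusted p = 0.9998), that of Grm2 moved from -0.12 to -0.03, and those of Grm3 and Grm4 turned negative, to -0.02 and -0.03. The values of Grm7 and Grm8 were -0.02 and -0.13.

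**Figure D4:**
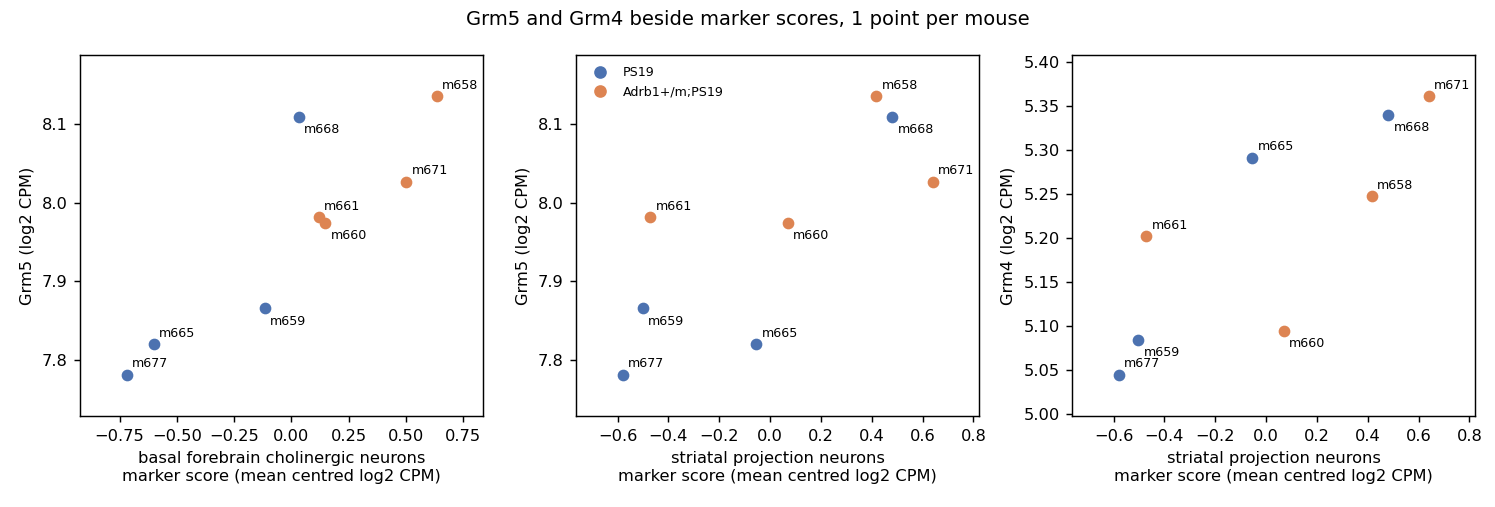
Grm5 (left and middle) and Grm4 (right) in log2 CPM (y axes) against the score of basal forebrain cholinergic or striatal projection neuron markers (x axes, mean centered log2 CPM), with 1 named point per mouse. Mice m658, m668 and m671 lie at the upper right of the middle panel, and m677 at the lower left of each panel. In the left panel m668 has a score of 0.03, below every Adrb1+/m;PS19 mouse.

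Gfap, the astrocyte filament gene that rises in reactive astrocytes, divided the mice into separate clusters within each genotype. It was at 181.7 to 353.6 CPM in m668, m665, m671 and m661 and at 748.4 to 837.9 CPM in m677, m659, m660 and m658, and its log2 fold change between the genotypes was 0.05 (SE 0.46). The 4 mice with the higher Gfap had Grm3 at 66.0 to 76.9 CPM and the other 4 at 79.8 to 92.3. For Grm8 the same mice had 15.8 to 17.7 and 18.2 to 20.6 CPM. How many of all genes tested separate the same mice was not counted, so these gaps are not shown to be particular to Grm3 and Grm8. Grm4 was lowest in 3 of the higher-Gfap mice, m677, m659 and m660, but overlapped, at 32.9 to 37.9 against 36.7 to 41.0 CPM. Grm5, Grm7 and Grm2 overlapped as well. These mice were set apart by a measured value and no test was made between them, and because of the clusters no pooled correlation is given with the astrocyte list or between Grm3 and Grm4. With log2 Gfap as a covariate, also chosen after seeing the data, none of the 6 receptors had an unadjusted edgeR p-value under 0.05, and the log2 fold change of Grm5 was 0.13. The part of reactive astrocytes in the levels of Grm3 and Grm8 was not tested.

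**Figure D5:**
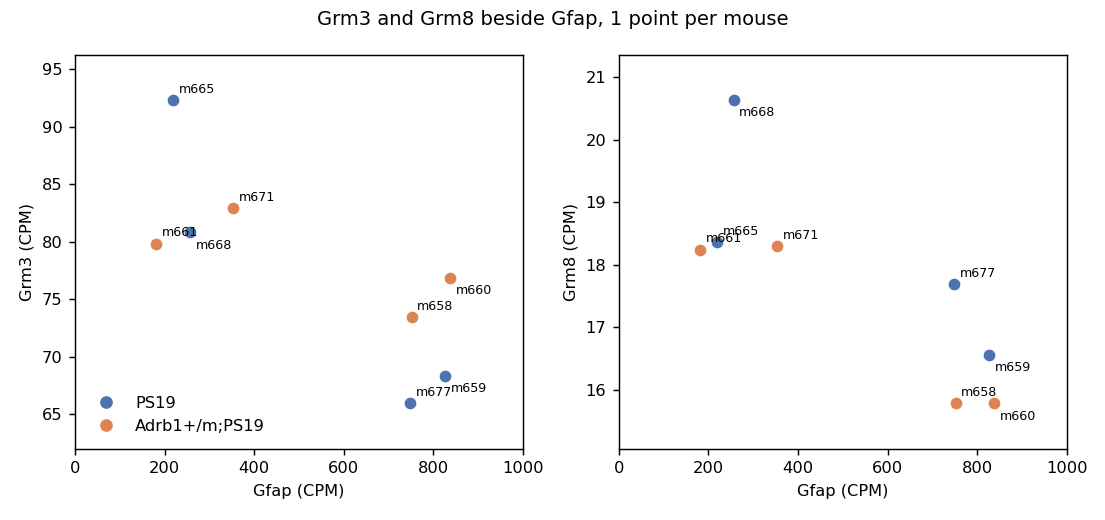
Grm3 (left) and Grm8 (right) in CPM (y axes, not from 0) against Gfap in CPM (x axes), with 1 named point per mouse colored by genotype. The 4 mice with Gfap above 748 CPM lie below the other 4 for both receptors, and each cluster holds 2 mice of each genotype. The share of all genes that lie apart in this way was not counted.

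The genes whose profile over the 8 mice was most like that of each receptor were ranked by Pearson's r among 11659 protein-coding genes, as a description without a test, since so few mice let many genes reach high values. They were Rai1, Slc5a7 and Scamp1 for Grm5 (r = 0.963, 0.963 and 0.944). Slc5a7, the choline transporter, is one of the cholinergic markers above. Its r over the 8 mice mixes in its difference between the genotypes (log2 fold change 0.65, edgeR adjusted p = 0.9996). They were Ssbp2, Exosc2 and Evc for Grm2 (r = 0.942 to 0.974), and Fam69a, Map3k3 and Fam13a for Grm3 (r = 0.95 to 0.98). For the group III genes they were Klhl2, Chn1 and Rbm24 with Grm4, Zfp605, Nudt12 and Krt20 with Grm7, and Rnf220, Emc4 and Dtx3 with Grm8, at r of 0.935 to 0.977. No receptor was among the 3 closest genes of another.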

How the data were processed

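Total RNA of dissected cortex was sequenced (paired-end, Illumina), 1 library per mouse. Per the paper and the labels, the authors aligned reads to GRCm38/mm10 with HISAT2 2.0.5, counted them per gene with featureCounts 1.5.0-p3 and deposited the raw counts; how strand, read pairs and multiply mapped reads were handled is not given in the sources used here. The gene length column of the deposited table, in bases, equals the summed exon length of GENCODE M21 for the 6 receptors and was used only for levels per kilobase, which rest on all annotated exons.

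Genotypes came from the labels. Counts were filtered with filterByExpr (17195 of 54532 genes kept), TMM-normalized and compared between genotypes by edgeR's quasi-likelihood test (edgeR 4.0.16 in R 4.3.3, glmQLFit then glmQLFTest, genotype as the only term), and p-values of the 17195 genes were adjusted by Benjamini-Hochberg. The SE is the size of the log2 fold change over the square root of F. log2 CPM used a prior count of 2. The edgeR p-values set the genotype difference against the variation between mice, whose litters are not known. With 1 library per mouse, that variation includes any from dissection and library preparation. Alternatives were DESeq2 1.42.0, limma-voom (limma 3.58.1), DESeq2 size factors, other count filters (none beyond 1 count, or at least 10 counts in every mouse), 1 surrogate variable (sva 3.50.0), other scalings, each mouse left out, and 2 covariates added after seeing the data. The steps were tested on simulated data with known 2-fold changes, which are larger than the changes seen for the receptors. Detection of changes of the receptors' size was not tested. The receptors, the partner and marker lists and the tests were chosen with earlier results of these data known. Named were the 6 receptors, partners with an unadjusted p under 0.05, 12 fixed genes, 5 defining markers and, for each receptor, the 3 protein-coding genes of at least 5 mean CPM with the highest r. Mgll and Shank3 were added after their values were seen. Other receptor genes of the family and the reads were not analysed here.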

Additional observations from a re-analysis of the deposited data

Results flagged for a closer look

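Within a genotype, 62 groups of 4 mice were examined for a value far from the others, over the receptors, the named partner and marker genes, 5 marker scores and the receptor sum, and 2 were found, where chance gives about 1 in 20. Homer1 in Adrb1+/m;PS19 mouse m658 was at 327.2 CPM, with the other 3 at 262.4 to 265.9, so that 0.946 of the range lay between it and its nearest neighbor. Homer2 in PS19 mouse m668 was at 74.2 CPM, with the other 3 at 66.3 to 66.8, with 0.94 of the range between it and the next. No receptor gene had such a mouse.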

How the results depend on the processing

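No paired analysis was possible because mouse numbers are not shared between genotypes and litters are unnamed. With all 8 mice, no setting other than the absence of a count filter changed the call of a receptor. With no filter beyond 1 count, 1366 of 33614 genes tested had an unadjusted p-value under 0.05, against 481 of 17195 in the main fit. They included 1 of the 6 receptors (Grm5) and 8 of the 61 partners, Homer1 (edgeR, adjusted p = 0.479) among them. The cause was not tested. With each mouse left out, all genes under the threshold ran from 431 of 17466 (without m660) to 674 of 17450 (without m661). Receptors ran from 0 to 1 (Grm5 without m668, Grm2 without m661) and partners from 0 (without m659) to 6 (without m661). All genes were 604 of 17556 without m668 and 476 of 17546 without m659. Partners were 4 without m677 (all genes 550 of 17548), 5 without m665 (607 of 17496), and 1 without m671 (632 of 17573) or without m660. Log2 fold changes whose sign turned ran from -0.0408 to 0.128 for Grm3, -0.0139 to 0.0826 for Grm4, -0.0541 to 0.0202 for Grm7, -0.0469 to 0.0917 for Elfn1, -0.0764 to 0.0558 for Elfn2, -0.121 to 0.0394 for Homer3, -0.0549 to 0.0448 for Ncdn and -0.0743 to 0.107 for Pick1. Others kept their sign, from -0.296 to -0.0404 for Grm2, -0.148 to -0.0434 for Grm8, 0.0949 to 0.208 for Grm5, 0.0093 to 0.0829 for Plcb1, -0.07 to -0.0173 for Gnaq, 0.0204 to 0.0617 for Gnao1, -0.163 to -0.0657 for Homer2, -0.0884 to -0.0337 for Prnp and -0.135 to -0.0097 for Adrb1. Shank1 and Shank2 were no longer past the threshold with the striatal covariate. Ncdn was 0.0012 with limma-voom, and with the striatal covariate Grm2 was -0.0333, Grm3 -0.021, Grm4 -0.032 and Plcb1 0.0124. With library totals alone, r was -0.0078 for Grm5 with Grm8 and -0.0601 for Grm8 with the interneuron score. Shares of the length-scaled sum are the same with TPM by construction, since both divide by gene length and by a constant per mouse. With 4 mice per genotype the 95% intervals still allowed folds of 0.747 to 1.13 for Grm2 and 0.988 to 1.22 for Grm5.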
